A study of Mus musculus with 24 samples.

Results

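Male C57Bl/6J mice inhaled vinyl chloride (VC) while they ate either a Western diet or a control diet, and the transcriptional difference between those diets in the liver is described here. The comparison sets 3 libraries labelled w12_WD+VC (Western diet with 42% fat, plus VC) against 3 libraries labelled w12_CD+VC (control diet with 13% fat, plus VC), which are 6 of the 24 libraries of the study and were chosen by their labels alone. All 6 came from livers taken at the end of 12 weeks of feeding and exposure, after a 4 hour fast. Both groups received VC at a nominal 0.85 ± 0.1 ppm (6 hours daily, 5 days weekly), so the comparison holds no animal that breathed clean air. Reference is also made to the clean-air groups of the same age (w12_WD, w12_CD) and to the VC groups kept for 9 further months (m12_WD+VC, m12_CD+VC), each with 3 libraries. The labels give no age of the mice and do not tie a library to a separate mouse, so the tests reflect the spread among libraries, which may be technical.

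VC is a gaseous industrial monomer that hepatocytes oxidise, mainly through the cytochrome P450 CYP2E1, to reactive products that are cleared by glutathione conjugation and aldehyde oxidation. A fatty diet loads the same cells with dietary fat. Hepatocytes sense fatty acids through the nuclear receptor PPAR-alpha, which switches on genes of fatty acid oxidation, ketone body synthesis and omega-hydroxylation. They sense glucose products through the factors ChREBP and MondoA, which act at paired E-boxes in promoters, and insulin and sterols through SREBP factors, which drive the synthesis of fatty acids and cholesterol.

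The libraries were shallow. The w12_WD+VC libraries held 566870, 283813 and 152082 counts and the w12_CD+VC libraries 421344, 140926 and 375015, so that a gene at 0 in a single library has an upper limit of 3 counts, or 5.29 to 21.3 CPM (counts scaled to a library total of 1000000). Replicate 1 gave 56.5% of the w12_WD+VC counts. Counts were found for 7487 to 9521 genes in w12_WD+VC libraries and for 7120 to 8899 in w12_CD+VC libraries. Entries whose exons overlap no gene on the opposite strand held 15 to 19.97% of w12_WD+VC counts and 14.29 to 18.73% of w12_CD+VC counts. The predicted entries Gm30505 and Gm10069 together held 17.52 to 22.94% and 16.46 to 24.97%. How far this affects the level of a named gene was not tested. Pairs within a group correlated at 0.881 to 0.930 across genes, and pairs between the groups at 0.857 to 0.903. On the first principal component of the 6 libraries, with 29.8% of the variance, the w12_WD+VC libraries lay at -22.7 to -10.4 and the w12_CD+VC libraries at 5.52 to 37.1. The 16 hepatocyte markers summed to 8599.9 to 13368 CPM in w12_WD+VC libraries and to 8618 to 14873 CPM in w12_CD+VC libraries, and Alb, the gene of serum albumin, had 2618, 3051 and 4300.3 CPM in w12_WD+VC libraries, against 4099, 3818 and 2512 CPM in w12_CD+VC libraries. Values are CPM of the library total, and fold changes are from edgeR after TMM scaling over 4198 genes that passed an expression filter.

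With Western diet 22 of the 4198 genes changed at an adjusted p under 0.05 (edgeR quasi-likelihood F test, Benjamini-Hochberg), which is 0.524% of the genes tested. Of these, 12 rose (0.286%) and 10 fell (0.238%). The 12 that rose were Txnip, a brake on glucose uptake that binds thioredoxin; the PPAR-alpha targets Cyp4a14 and Acot4; the lipoprotein gene Apoa4; Tor1a, Reep6, Mvp, Phb2, Mybph and Slc16a5; and the non-coding entries C230037L18Rik and Gm6297. The 10 that fell were Efna3, Usp24, Xirp1, Slc22a3, Itgb1bp1, Lsr, Ppp4r4, D630045J12Rik, Prepl and Gpr108. The count rested on single libraries. Without w12_WD+VC replicate 1, the deepest library, edgeR called 0 genes, with 337 at an unadjusted p under 0.05, and DESeq2 (177 at that p) and limma-voom (455) also called 0. It was 11 without w12_WD+VC replicate 2, 46 without w12_WD+VC replicate 3, and 10, 6 and 5 without w12_CD+VC replicates 1, 2 and 3. All 22 genes kept their direction in every alternative that gave them a value. They were chosen by this contrast, which makes a change of sign unlikely, so nothing is read from that.

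**Figure D1:**
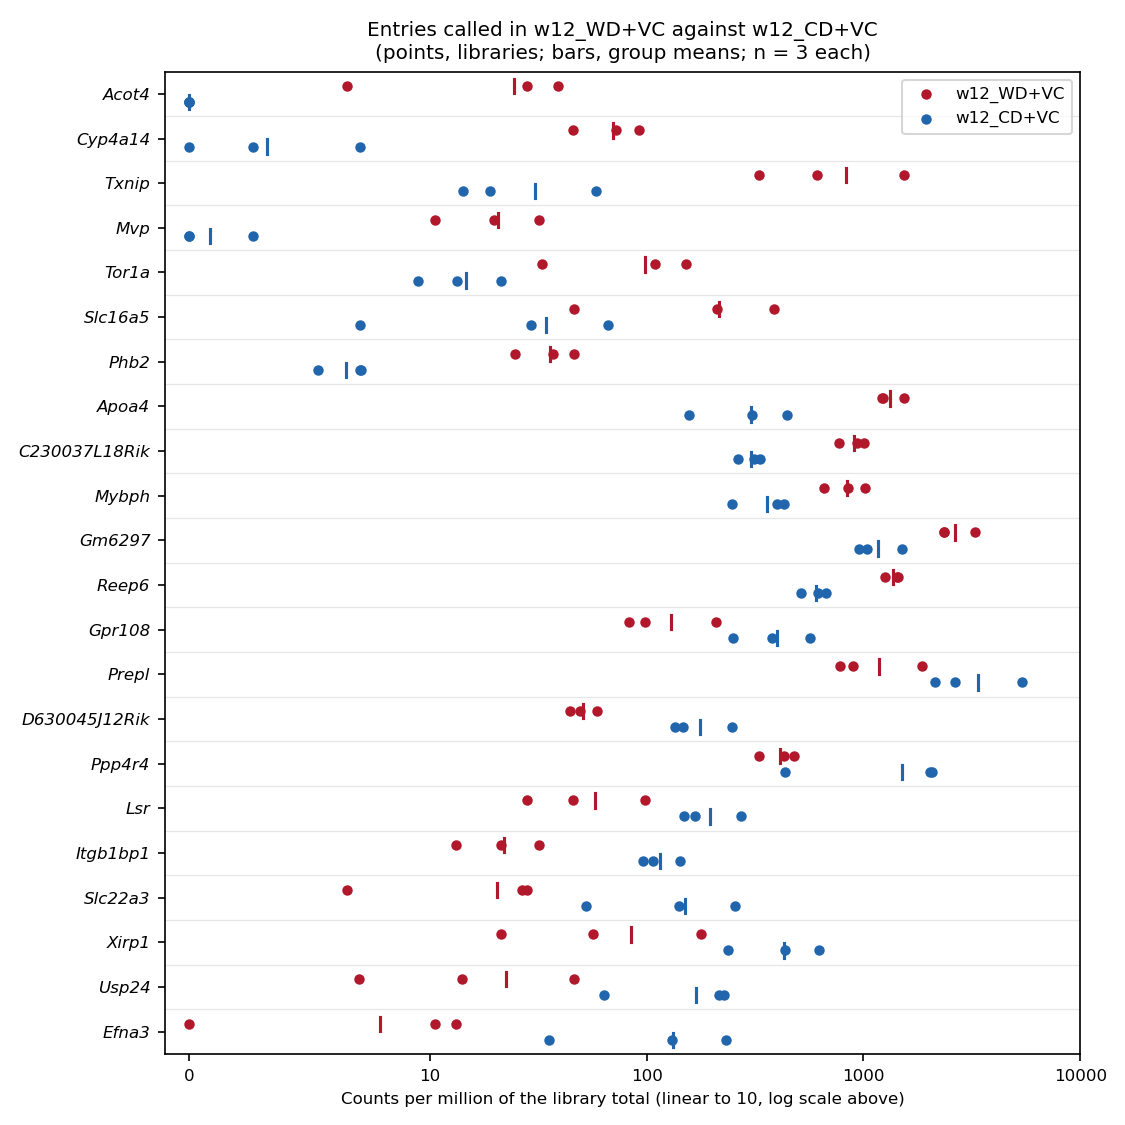
CPM of the library total (horizontal axis, linear to 10 and logarithmic above) for the 22 called entries in each library, w12_WD+VC in red above w12_CD+VC in blue, with group means as bars (3 libraries a group). The groups do not overlap for 20 entries, and Slc16a5 and Ppp4r4 are the exceptions.

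For 20 of the 22 called genes the w12_WD+VC and w12_CD+VC libraries did not overlap, against 660 of all 4198 genes tested (15.7%). The same contrast chose the 22, so nothing is read from that share. The other two, Slc16a5 and Ppp4r4, fell outside the rule for naming called genes of this comparison and are named after their values were seen. A further property bears on most of the genes below. The exons of 13 of the 22 overlap a gene on the opposite strand in the GENCODE M21 annotation of GRCm38. The kit as named does not mark strand, and the strand setting of the counting was not given. How reads were assigned between such a gene and its partner is therefore not known, and the counts of both are uncertain. Of the 13, 7 have a partner among the counted entries. Tor1a, Reep6, Mvp, Cyp4a14, Usp24, Xirp1, Ppp4r4, Gpr108 and D630045J12Rik have no such overlap.

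Of the called genes with more than 3 counts in each group, Txnip had the largest rise. It encodes thioredoxin-interacting protein, an arrestin-like protein that lowers glucose entry into cells, and its transcription is a standard readout of ChREBP and MondoA. Txnip had 1544, 613 and 329 CPM in w12_WD+VC libraries, against 19, 14.2 and 58.7 CPM in w12_CD+VC libraries. All w12_WD+VC libraries stood above all w12_CD+VC libraries, with replicate 1 highest by far. The fold was 26 (log2 fold change 4.70 ± 0.79 SE, edgeR adjusted p = 0.00385). The gene lies at chr3:96557957-96561883, plus strand, inside the span of the antisense entry Gm15441, which had 6860.5, 7653 and 4274 CPM in w12_WD+VC libraries, against 4030.0, 4485 and 4058 CPM in w12_CD+VC libraries, with no call (log2 fold change 0.62 ± 0.40 SE, unadjusted p = 0.124). Txnip kept its call without any single library but one. Without w12_WD+VC replicate 1 the fold was still upward and the adjusted p was 0.0996 in edgeR.

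The Txnip promoter is shown because its letters match a paired E-box, the type of element named above for ChREBP and MondoA. The RefSeq window runs from 250 bases before to 50 bases after the start, at chr3:96557707-96558006 on the plus strand of GRCm38.p6. The capitals mark the pair, searched as CACGNG and CNCGNG with 5 bases between, a motif added after the values were seen.
Txnip: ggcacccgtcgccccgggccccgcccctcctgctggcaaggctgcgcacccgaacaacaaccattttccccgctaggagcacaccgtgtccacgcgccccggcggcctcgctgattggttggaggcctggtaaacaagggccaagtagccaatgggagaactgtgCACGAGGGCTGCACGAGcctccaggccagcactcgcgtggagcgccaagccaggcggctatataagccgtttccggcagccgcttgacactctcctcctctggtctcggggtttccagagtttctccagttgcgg
The match begins 85 bases before the start. The same letters, read on both strands, occur in 120 of 32851 mouse promoter windows (0.365%). The motif was chosen with the Txnip values known, so nothing is read from that share. CCAAT also occurs at bases 114 to 118 and 149 to 153 of the window, once on each strand and apart from the E-box pair, and is common, in 12289 windows (37.4%). The PPAR/RXR repeat, AGGTCA 2 times with 1 base between, occurs in 13 of the 32851 windows (0.0396%) and in none of the 18 called genes with a window, which do not include Cyp4a14, Reep6, Slc16a5 and Xirp1. Nothing is read from its absence. A match describes letters and shows no binding. The part of ChREBP or MondoA in the rise of Txnip was not tested.

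The remaining tested genes of glucose metabolism gave no call. Median log2 fold change over the 16 tested of 21 listed genes was 0.01, against 0.02 over all genes tested. It lay between -0.30 and 0.04 whichever library was left out. At an unadjusted p under 0.05, 3 were higher (Txnip included) and 1 was lower, where 5.88% and 4.84% of all genes tested were. G6pc, the last step of glucose release, had 3.53, 17.6 and 19.7 CPM in w12_WD+VC libraries, against 64.1, 28.4 and 45.3 CPM in w12_CD+VC libraries (log2 fold change -2.03 ± 0.67 SE, edgeR adjusted p = 0.22). Gys2, liver glycogen synthase, had 28.2, 17.6 and 39.5 CPM in w12_WD+VC libraries, against 14.2, 0 and 2.67 CPM in w12_CD+VC libraries. Pck1, which opens gluconeogenesis, had a log2 fold change of 0.05 ± 0.40 SE.

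Genes of fatty acid oxidation had fold changes mostly above 0 with Western diet. Of 28 listed genes 22 were tested, 1 rose past the adjusted threshold (Cyp4a14), and 8 were higher at an unadjusted p under 0.05 with 0 lower, where 5.88% and 4.84% of all genes tested were. The log2 fold change was above 0 for 20 of the 22, with a median of 0.47, while 2151 of the 4198 genes tested were above 0. The median lay between 0.45 and 1.09 whichever library was left out, highest without w12_CD+VC replicate 1 and next without w12_WD+VC replicate 2 (0.72). It was 0.79 over the 14 members tested when only entries without an opposite-strand overlap were fitted. The main fit tested 17 such members. Cyp4a14, a microsomal fatty acid omega-hydroxylase and a classical PPAR-alpha target, had 91.7, 45.8 and 72.3 CPM in w12_WD+VC libraries, against 0, 7.1 and 2.67 CPM in w12_CD+VC libraries. Only 2 counts stand behind the w12_CD+VC values, against 76 in w12_WD+VC, a ratio of 35.5 with an exact 95% interval of 9.5 to 299 for counting error alone (edgeR adjusted p = 0.0287). The groups do not overlap. In each w12_WD+VC library its counts equal those of its close paralog Cyp4a10 (52, 13 and 11), while in w12_CD+VC libraries they differ (0, 1 and 1 for Cyp4a14, 2, 3 and 14 for Cyp4a10), and reads of such paralogs may be split between them. Acot4, a peroxisomal thioesterase that frees succinate from its coenzyme A ester, had 38.8, 28.2 and 6.58 CPM in w12_WD+VC libraries and 0 counts in all w12_CD+VC libraries. With 3 counts assumed over the w12_CD+VC group it was at least 9.66-fold higher (edgeR adjusted p = 0.0343). It overlaps 4732463B04Rik on the other strand and has close paralogs next to it, so its counts are uncertain too.

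The other 7 genes of that list at an unadjusted p under 0.05 are named after their values were seen, and none passed adjustment in edgeR. Creb3l3, a liver transcription factor that works with PPAR-alpha, had 95.3, 88.1 and 125 CPM in w12_WD+VC libraries, against 38, 71 and 29.3 CPM in w12_CD+VC libraries (log2 fold change 1.28 ± 0.40 SE). Cyp4a10, the partner omega-hydroxylase, had 91.7, 45.8 and 72.3 CPM in w12_WD+VC libraries, against 4.75, 21.3 and 37.3 CPM in w12_CD+VC libraries (1.78 ± 0.65 SE). Vnn1, a pantetheinase induced by PPAR-alpha, had 12.3, 24.7 and 6.58 CPM in w12_WD+VC libraries, against 2.37, 7.1 and 0 CPM in w12_CD+VC libraries. Acads and Acadm, the short-chain and medium-chain acyl-CoA dehydrogenases, had log2 fold changes of 1.83 and 0.99, Ehhadh of the peroxisome 1.04, and Bdh1, which makes the ketone body hydroxybutyrate, 1.20. Cpt1a, the gate of mitochondrial fat entry, had a log2 fold change of 0.19 ± 0.41 SE. Ppara itself had a log2 fold change of -0.38 ± 0.67 SE. Pdk4, a PPAR-alpha target that restrains pyruvate oxidation, was below the expression filter, with 3.53, 7.05 and 0 CPM in w12_WD+VC libraries and 0, 0 and 8 CPM in w12_CD+VC libraries.

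Genes of fatty acid and triglyceride synthesis gave no call, and their fold changes were mostly below 0, by an amount that depended on 1 library on control diet. Of 22 listed genes 20 were tested, with a median log2 fold change of -1.06 and 5 above 0. At an unadjusted p under 0.05, 1 was higher and 3 were lower, where 5.88% and 4.84% of all genes tested were. Scd1, which puts the first double bond into stearate, had 171, 113 and 381 CPM in w12_WD+VC libraries, against 3130.5, 561 and 181 CPM in w12_CD+VC libraries (log2 fold change -2.57 ± 0.95 SE, edgeR adjusted p = 0.295). w12_CD+VC replicate 1 was far above the rest, and the groups overlap, since w12_WD+VC replicate 3 lay above w12_CD+VC replicate 3. Fasn, fatty acid synthase, had 17.6, 21.1 and 19.7 CPM in w12_WD+VC libraries, against 109, 78.1 and 24 CPM in w12_CD+VC libraries. Acly, which supplies cytosolic acetyl-CoA, had 5.29, 14.1 and 13.2 CPM in w12_WD+VC libraries, against 66.5, 28.4 and 5.33 CPM in w12_CD+VC libraries, with w12_CD+VC replicate 1 again highest. Without that library the median of the list was -0.16 with 8 of 20 above 0, and without w12_WD+VC replicate 1 it was -0.70. It was -0.61 with limma-voom and -0.25 over the 9 members tested when only the compared groups were fitted. Fads2, the delta-6 desaturase of polyunsaturated fat, went the other way and its groups did not overlap: 224, 201 and 210.4 CPM in w12_WD+VC libraries, against 147, 78.1 and 80 CPM in w12_CD+VC libraries (log2 fold change 1.06 ± 0.36 SE, edgeR adjusted p = 0.247). Srebf1, the SREBP gene of this program, had 30, 28.2 and 26.3 CPM in w12_WD+VC libraries, against 45.1, 49.7 and 2.67 CPM in w12_CD+VC libraries, and it overlaps Rai1 on the opposite strand.

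Sterol synthesis was thinly counted: 13 of 25 listed genes were tested, with 0 calls, a median log2 fold change of -0.29 and 3 above 0. The direction rested on w12_WD+VC replicate 1. Without it the median was -0.12 with 6 of 13 above 0 in edgeR, 0.09 in DESeq2 and 0.03 in limma-voom, the last pair with 7 above 0, and without w12_CD+VC replicate 3 it was -0.18. Sqle, which makes squalene epoxide, had 132, 130.4 and 145 CPM in w12_WD+VC libraries, against 195, 170.3 and 139 CPM in w12_CD+VC libraries. Insig1, the sterol-sensing anchor of SREBP, had 1.76, 3.52 and 19.7 CPM in w12_WD+VC libraries, against 11.9, 0 and 13.3 CPM in w12_CD+VC libraries, and its groups overlap.

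Apoa4 rose. It encodes apolipoprotein A-IV, a protein of triglyceride-rich lipoproteins that mouse liver makes alongside the intestine. Apoa4 had 1537, 1229.7 and 1223 CPM in w12_WD+VC libraries, against 306, 156 and 445 CPM in w12_CD+VC libraries. The w12_WD+VC libraries were close together and all above the w12_CD+VC libraries, with group values of 1329.7 ± 179 CPM and 303 ± 145 CPM (SD, n = 3 each). The fold was 4.3 (log2 fold change 2.11 ± 0.41 SE, edgeR adjusted p = 0.0137). It lies at chr9:46240696-46243459, plus strand, overlaps Gm47528 and Gm10680, and lost the call without w12_CD+VC replicate 1, w12_CD+VC replicate 2 or w12_WD+VC replicate 1, where the largest adjusted p was 0.160. None of the 12 other tested apolipoprotein genes was called, and the list's median log2 fold change was -0.17, between -0.26 and 0.03 whichever library was left out. Apoe, which marks remnant lipoproteins, had 11391, 11268 and 15143 CPM in w12_WD+VC libraries, against 8646, 8465 and 5312 CPM in w12_CD+VC libraries (log2 fold change 0.78 ± 0.33 SE, edgeR adjusted p = 0.407).

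Lipid droplet and uptake genes gave no call among 16 tested of 22 listed, with a median log2 fold change of 0.34. At an unadjusted p under 0.05, 1 was higher and 2 were lower, where 5.88% and 4.84% of all genes tested were. The direction of the list turned when only entries without an opposite-strand overlap were fitted. The 9 members tested there had a median of -0.81 with 4 above 0, while the main fit tested 12 such members. Over all 16 the median was 0.04 without w12_CD+VC replicate 3, 0.09 without w12_WD+VC replicate 3 and 0.61 without w12_CD+VC replicate 2. Cidec, which fuses lipid droplets and is known to rise in fatty liver, was lower in every w12_WD+VC library: 67, 102 and 125 CPM in w12_WD+VC libraries, against 197, 206 and 160.0 CPM in w12_CD+VC libraries (log2 fold change -0.96 ± 0.34 SE, edgeR adjusted p = 0.267). Cd36, a fatty acid translocase, had 22 counts in w12_WD+VC libraries and 3 in w12_CD+VC libraries, a ratio of 6.85 with an exact 95% interval of 2.06 to 35.8. Plin2, which coats lipid droplets, had 91.7, 109 and 118 CPM in w12_WD+VC libraries, against 57, 99.3 and 58.7 CPM in w12_CD+VC libraries, and the groups overlap. Cidea and Pparg, which are known to rise in steatosis, were below the filter: Cidea had 1.76, 10.6 and 6.58 CPM and Pparg 8.82, 3.52 and 0 CPM in w12_WD+VC libraries, and both had 0 counts in w12_CD+VC libraries.

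Tor1a, Reep6 and Mvp rose without an opposite-strand partner. Tor1a encodes torsin A, an ATPase of the endoplasmic reticulum lumen, and lies at chr2:30960627-30967933, minus strand. It had 152, 109 and 32.9 CPM in w12_WD+VC libraries, against 9.49, 21.3 and 13.3 CPM in w12_CD+VC libraries, with no overlap and the highest value in w12_WD+VC replicate 1. The fold was 8.1 (log2 fold change 3.02 ± 0.55 SE, edgeR adjusted p = 0.0058), and the call was lost without w12_CD+VC replicate 1 or w12_WD+VC replicate 1, at adjusted p up to 0.175. Reep6 encodes a membrane protein that shapes the endoplasmic reticulum. It had 1438, 1251 and 1433 CPM in w12_WD+VC libraries, against 617, 674 and 515 CPM in w12_CD+VC libraries, without overlap: 1374 ± 107 CPM against 602 ± 80.8 CPM (SD, n = 3 each), a fold of 2.33 (log2 fold change 1.22 ± 0.26 SE, edgeR adjusted p = 0.0182). Of the fits without 1 library, only that without w12_WD+VC replicate 3 kept the call. Also lost was the call without the expression filter and among entries without an opposite-strand overlap, at edgeR adjusted p up to 0.256. Mvp, the main protein of the ribonucleoprotein particles called vaults, had 31.8, 10.6 and 19.7 CPM in w12_WD+VC libraries and 0, 0 and 2.67 CPM in w12_CD+VC libraries, where 1 count was found. Its count ratio was 22.4, with an exact 95% interval of 3.66 to 923 (edgeR adjusted p = 0.0269). The list of the unfolded protein and integrated stress responses, which holds none of these genes, gave no call among 15 tested. Its median log2 fold change was -0.13, and it was 0.09 without w12_WD+VC replicate 1, 0.01 without w12_WD+VC replicate 2 and -0.36 without w12_WD+VC replicate 3.

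The remaining genes that rose overlap another gene. Phb2, prohibitin 2 of the mitochondrial inner membrane, had 37, 24.7 and 46 CPM in w12_WD+VC libraries, against 7.12, 7.1 and 5.33 CPM in w12_CD+VC libraries (log2 fold change 2.43 ± 0.58 SE, edgeR adjusted p = 0.0401), while 15 tested nuclear genes of the respiratory chain had a median log2 fold change of -0.10 (-0.34 to 0.39 without 1 library) and 0 calls. Mybph, a myosin-binding protein known from skeletal muscle, had 847, 1011 and 658 CPM in w12_WD+VC libraries, against 432, 248 and 397 CPM in w12_CD+VC libraries (log2 fold change 1.24 ± 0.30 SE, edgeR adjusted p = 0.0401). Its partner Adora1, an adenosine receptor gene, was below the expression filter, with 5.29, 10.6 and 6.58 CPM in w12_WD+VC libraries and 0 in w12_CD+VC libraries. Slc16a5, of the monocarboxylate transporter family, had 386, 211 and 46 CPM in w12_WD+VC libraries, against 66.5, 7.1 and 29.3 CPM in w12_CD+VC libraries (log2 fold change 2.61 ± 0.55 SE, adjusted p = 0.0194), so w12_WD+VC replicate 3 lay below w12_CD+VC replicate 1. The antisense entry C230037L18Rik had 1009, 930.2 and 769 CPM in w12_WD+VC libraries, against 335, 263 and 312 CPM in w12_CD+VC libraries (log2 fold change 1.60 ± 0.34 SE, adjusted p = 0.0182). Its partner Arsa, arylsulfatase A, was not called (0.47 ± 0.45 SE). Gm6297, a long non-coding entry, had 3269, 2343 and 2354 CPM in w12_WD+VC libraries, against 1505, 951 and 1040.0 CPM in w12_CD+VC libraries (log2 fold change 1.23 ± 0.28 SE, adjusted p = 0.0287), and its partner Dnaja1, a cochaperone gene, was at 82.9 to 112 CPM in w12_WD+VC libraries and 71 to 126 CPM in w12_CD+VC libraries. Apart from Slc16a5, the groups do not overlap for any of these called genes. The call of Phb2 was lost whichever library was left out.

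Among the genes that fell, Efna3 had the lowest fold change. It encodes ephrin A3, a membrane-anchored ligand of Eph receptors, and lies at chr3:89313899-89322965, minus strand. Efna3 had 0, 10.6 and 13.2 CPM in w12_WD+VC libraries, against 131, 35.5 and 232 CPM in w12_CD+VC libraries, without overlap. It was 24.4-fold lower with Western diet (log2 fold change -4.61 ± 0.84 SE, edgeR adjusted p = 0.0058), and it overlaps Gm15998 on the other strand. The call was lost without w12_CD+VC replicate 3 or w12_WD+VC replicate 1, at adjusted p up to 0.175.

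Usp24, Xirp1, Gpr108, D630045J12Rik and Ppp4r4 fell and have no opposite-strand partner. Usp24, a deubiquitinating enzyme, lies at chr4:106316213-106441322, plus strand, and had 7.06, 14.1 and 46 CPM in w12_WD+VC libraries, against 228, 63.9 and 216 CPM in w12_CD+VC libraries. The w12_WD+VC libraries were all below the w12_CD+VC libraries, 10.2-fold by the model (log2 fold change -3.35 ± 0.69 SE, edgeR adjusted p = 0.017). Xirp1, an actin-binding protein known from heart and skeletal muscle, had 21.2, 56.4 and 178 CPM in w12_WD+VC libraries, against 237, 433 and 621 CPM in w12_CD+VC libraries, which is 6.13-fold lower (log2 fold change -2.62 ± 0.59 SE, edgeR adjusted p = 0.0287). Gpr108, a membrane protein of the Golgi, had 82.9, 208 and 98.6 CPM in w12_WD+VC libraries, against 249, 568 and 379 CPM in w12_CD+VC libraries (log2 fold change -1.57 ± 0.36 SE, edgeR adjusted p = 0.0343). D630045J12Rik had 44.1, 49.3 and 59.2 CPM in w12_WD+VC libraries, against 135, 248 and 147 CPM in w12_CD+VC libraries (log2 fold change -1.75 ± 0.43 SE, edgeR adjusted p = 0.044). Its call was lost whichever library was left out, and with RLE size factors and DESeq2 among other alternatives. Ppp4r4, a regulatory subunit of protein phosphatase 4, had 328, 429.9 and 480.0 CPM in w12_WD+VC libraries, against 437, 2029 and 2069 CPM in w12_CD+VC libraries (log2 fold change -1.90 ± 0.44 SE, edgeR adjusted p = 0.0336), and here w12_CD+VC replicate 1 lay among the w12_WD+VC values.

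Another 4 genes that fell overlap a gene on the opposite strand. Prepl, a prolyl endopeptidase-like hydrolase, had 894, 782 and 1861 CPM in w12_WD+VC libraries, against 2644, 2129 and 5397 CPM in w12_CD+VC libraries. It was 3.02-fold lower (log2 fold change -1.60 ± 0.36 SE, edgeR adjusted p = 0.0287), while its partner Slc3a1, an amino acid transporter subunit, had 375 to 412 CPM in w12_WD+VC libraries and 408 to 432 CPM in w12_CD+VC libraries. Itgb1bp1, which binds the tail of integrin beta 1, had 21.2, 31.7 and 13.2 CPM in w12_WD+VC libraries, against 142, 106 and 96 CPM in w12_CD+VC libraries (log2 fold change -2.26 ± 0.46 SE, edgeR adjusted p = 0.017), with its partner Asap2 at a log2 fold change of -0.01 ± 0.32 SE. Slc22a3, an organic cation transporter, had 26.5, 28.2 and 6.58 CPM in w12_WD+VC libraries, against 52.2, 255 and 141 CPM in w12_CD+VC libraries (log2 fold change -2.56 ± 0.60 SE, edgeR adjusted p = 0.0367). Its partner Plg, plasminogen, was also lower, at a log2 fold change of -0.68 ± 0.33 SE (unadjusted p = 0.0461), with no call. Lsr, a receptor that takes up lipolysed lipoproteins, had 45.9, 28.2 and 98.6 CPM in w12_WD+VC libraries, against 166, 149 and 272 CPM in w12_CD+VC libraries (log2 fold change -1.91 ± 0.46 SE, edgeR adjusted p = 0.0401). The groups do not overlap for any of the 4.

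**Figure D2:**
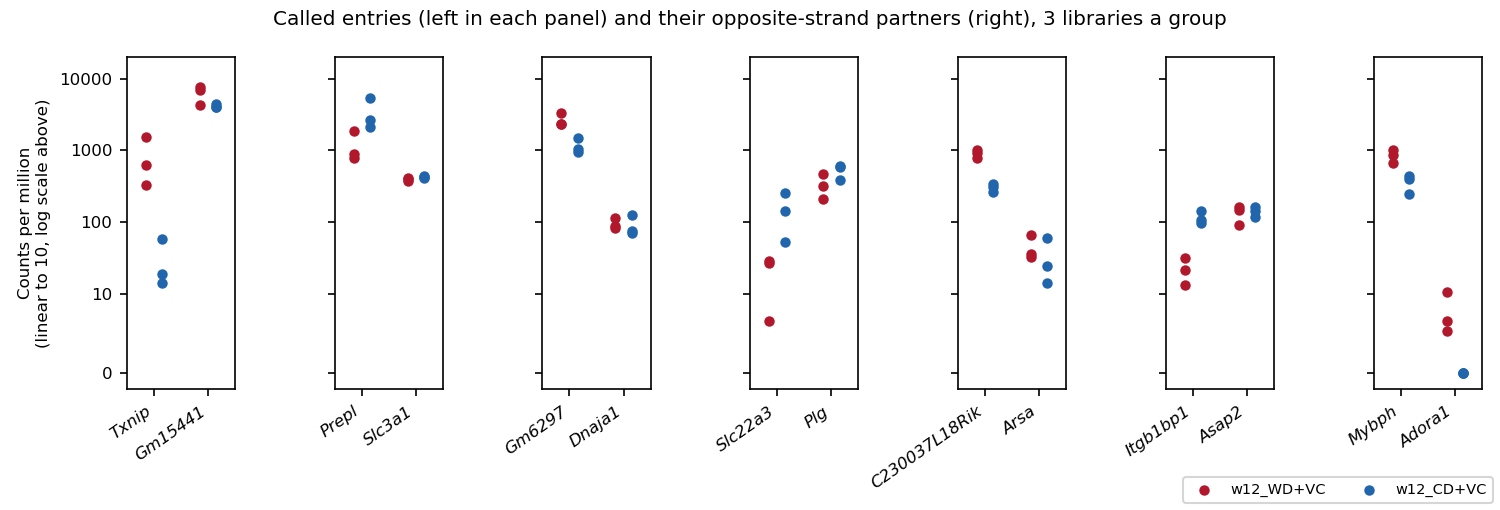
CPM (vertical axis, linear to 10 and logarithmic above) of 7 called entries, left in each panel, and of their opposite-strand partners, right, for 3 w12_WD+VC libraries (red) and 3 w12_CD+VC libraries (blue). The Txnip values of the groups lie apart while those of Gm15441 lie closer together, and Slc3a1 stays between 375 and 432 CPM. None of the tested partners was called, and Adora1 was below the expression filter and not tested.

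Sex-biased liver genes that depend on growth hormone had fold changes mostly below 0 with Western diet, without a call. Of 24 listed genes 17 were tested, 2 had a log2 fold change above 0, and the median was -1.04, between -1.89 and -0.49 whichever library was left out. By comparison, 2151 of the 4198 genes tested were above 0. At an unadjusted p under 0.05, 5 were lower and 0 higher, where 4.84% and 5.88% of all genes tested were. The extremes of the median came without w12_WD+VC replicate 3 (-1.89) and without w12_WD+VC replicate 1 (-0.49). The 5 include the major urinary proteins Mup14, Mup7 and Mup3, pheromone carriers whose near-identical copies share reads and are uncertain singly. Serpina1e, a protease inhibitor, had 40.6, 102 and 355 CPM in w12_WD+VC libraries, against 496, 944 and 336 CPM in w12_CD+VC libraries (log2 fold change -1.98 ± 0.58 SE, edgeR adjusted p = 0.137), and C6, of the complement attack complex, had 3.53, 17.6 and 13.2 CPM in w12_WD+VC libraries, against 57, 106 and 13.3 CPM in w12_CD+VC libraries (log2 fold change -2.34 ± 0.74 SE, edgeR adjusted p = 0.176). Mup7 had 5.29, 21.1 and 276 CPM in w12_WD+VC libraries, against 781, 362 and 139 CPM in w12_CD+VC libraries. Igf1, which growth hormone induces, had a log2 fold change of 0.73 ± 0.42 SE.

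Bile acid genes gave no call among 16 tested of 21 listed, with a median log2 fold change of -0.29. At an unadjusted p under 0.05, 4 were lower and 1 was higher, where 4.84% and 5.88% of all genes tested were. The median was -0.11 without w12_CD+VC replicate 2 and 0.14 over the 9 members tested when only the compared groups were fitted. Cyp2c70, the mouse enzyme of muricholic acid synthesis, had 7.06, 0 and 6.58 CPM in w12_WD+VC libraries, against 119, 28.4 and 29.3 CPM in w12_CD+VC libraries (log2 fold change -3.52 ± 0.91 SE, edgeR adjusted p = 0.0709). Abcb11, the bile salt export pump, had 21.2, 17.6 and 6.58 CPM in w12_WD+VC libraries, against 126, 56.8 and 10.7 CPM in w12_CD+VC libraries (log2 fold change -1.83 ± 0.66 SE, edgeR adjusted p = 0.281). Cyp7a1, the rate-limiting enzyme of bile acid synthesis, had 42.3, 66.9 and 19.7 CPM in w12_WD+VC libraries, against 28.5, 56.8 and 8 CPM in w12_CD+VC libraries, and the sterol exporter Abcg5 had 14.1, 3.52 and 13.2 CPM in w12_WD+VC libraries, against 11.9, 21.3 and 2.67 CPM in w12_CD+VC libraries; both pairs of groups overlap.

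The enzymes that handle VC itself gave no call. Among 20 tested of 29 listed genes of VC oxidation and glutathione conjugation, the median log2 fold change was 0.14 (0 to 0.31 without 1 library). At an unadjusted p under 0.05, 2 were higher and 1 was lower, where 5.88% and 4.84% of all genes tested were. Cyp2e1 had 1009, 1054 and 1170.4 CPM in w12_WD+VC libraries, against 954, 1469 and 507 CPM in w12_CD+VC libraries (log2 fold change 0.20 ± 0.44 SE, edgeR adjusted p = 0.948), and the groups overlap. Gstt2, a theta-class glutathione transferase, had 12.3, 14.1 and 13.2 CPM in w12_WD+VC libraries, against 2.37, 7.1 and 0 CPM in w12_CD+VC libraries (log2 fold change 2.46 ± 0.84 SE, edgeR adjusted p = 0.247). Gstp1, of the pi class, had 12.3, 10.6 and 26.3 CPM in w12_WD+VC libraries, against 59.3, 35.5 and 29.3 CPM in w12_CD+VC libraries (log2 fold change -1.46 ± 0.62 SE, edgeR adjusted p = 0.407). Other P450s of foreign compounds had a median log2 fold change of 0.04 over 15 tested genes (-0.14 to 0.21 without 1 library), Cyp3a11 had 111, 52.9 and 59.2 CPM in w12_WD+VC libraries, against 73.6, 156 and 34.7 CPM in w12_CD+VC libraries, and Cyp2b10 had 0 counts in all 6 libraries.

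Other programs gave no call either, and the single members named for their p were named after the values were seen. Acute phase and complement genes had a median log2 fold change of -0.22 over 23 tested genes (-0.29 to 0.06 without 1 library). At an unadjusted p under 0.05, 2 were higher and 4 were lower, where 5.88% and 4.84% of all genes tested were. The 4 include all 3 fibrinogen chains (Fga -0.81, Fgb -0.94, Fgg -0.99). Saa1, serum amyloid A, had 88.2, 166 and 171 CPM in w12_WD+VC libraries, against 59.3, 426 and 245 CPM in w12_CD+VC libraries. Urea cycle and nitrogen genes had a median of -0.52 over 13, NRF2 targets and iron storage 0.16 over 11, clock genes -0.10 over 5, genes of m6A RNA methylation -0.20 over 6 and matrix genes 0.96 over 4, against 0.02 over all genes tested. Without 1 library these medians ran from -0.61 to -0.26 for the urea cycle, 0.16 to 0.58 for NRF2 targets, -0.27 to 0.13 for the clock, -0.37 to -0.08 for m6A and 0.75 to 1.25 for matrix genes. Per2, a clock repressor, had 44.1, 45.8 and 52.6 CPM in w12_WD+VC libraries, against 142, 135 and 125 CPM in w12_CD+VC libraries (log2 fold change -1.48 ± 0.48 SE, edgeR adjusted p = 0.205). Mettl3, the m6A writer, had 155, 95.1 and 125 CPM in w12_WD+VC libraries, against 147, 234 and 187 CPM in w12_CD+VC libraries. Fto, an m6A eraser, and Mki67, a proliferation marker, were below the filter, with at most 13.2 CPM in a w12_WD+VC library and 7.1 CPM in a w12_CD+VC library. Afp, the fetal albumin homologue, had 35.3, 28.2 and 19.7 CPM in w12_WD+VC libraries, against 68.8, 7.1 and 66.7 CPM in w12_CD+VC libraries.

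Markers of other liver cells were sparse. In bulk RNA, fewer cells of a type and less RNA per cell cannot be told apart. The summed level of the 16 macrophage and Kupffer cell markers in the table was 123 to 237 CPM in w12_WD+VC libraries and 85.2 to 145 CPM in w12_CD+VC libraries. Of 10 tested, 0 were called and 7 had a log2 fold change above 0. At an unadjusted p under 0.05, 3 (Csf1r, C1qc and Ctss) were higher, where 5.88% of all genes tested were. The median of the 10 was 0.93 as fitted, 0.53 without w12_WD+VC replicate 1 and 1.59 without w12_CD+VC replicate 1. It was 1.10 with Ctss at its bound and without Gpnmb, which like Trem2 had 0 counts in the 6 libraries. Cd5l of Kupffer cells had 35.3, 10.6 and 19.7 CPM in w12_WD+VC libraries, against 19, 7.1 and 5.33 CPM in w12_CD+VC libraries, and Lyz2 of macrophages had 15.9, 0 and 6.58 CPM in w12_WD+VC libraries, against 11.9, 7.1 and 0 CPM in w12_CD+VC libraries. Endothelial and stellate cells had 3 and 4 tested markers, with 0 calls. No marker of T, B and NK cells or of neutrophils passed the filter, and 9 of 11 and 6 of 7 of them in the table had 0 counts in the 6 libraries. Of the markers in the table, 6 of 8 for bile duct cells, 5 of 6 for red blood cells and 4 of 6 for adipocytes were at 0 as well. The part of macrophage RNA in the results was not tested.

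The called genes were then read in libraries outside the 2 compared groups. These libraries were part of the same fit of 24 libraries, and so shared its expression filter and its estimate of the spread. At 12 months, m12_WD+VC and m12_CD+VC libraries shared the direction for 19 of the 22, where 54.7% of all genes tested shared it. Of the 22, 6 had an unadjusted p under 0.05, all in the same direction. The share of all genes at that p was not counted for 12 months, so nothing is read from the 6. The median log2 fold change in the called direction was 0.53, against 2.35 in the 12-week libraries that chose the genes. At 12 months 76 of the 4198 genes were called (1.81%), and Usp24 was the only one of the 22 among them. It had 42.4, 28.1 and 28.2 CPM in m12_WD+VC libraries, against 243, 309 and 450.2 CPM in m12_CD+VC libraries (-3.42 ± 0.62 SE on the log2 scale, edgeR adjusted p = 0.00253), beside -3.35 at 12 weeks. Xirp1 had 63.6, 23.4 and 23.1 CPM in m12_WD+VC libraries and 99.1, 71.3 and 206 CPM in m12_CD+VC libraries (-2.07 ± 0.66 SE, edgeR adjusted p = 0.101), and Efna3 had 42.4, 29.6 and 53.9 CPM in m12_WD+VC libraries and 158, 103 and 119.7 CPM in m12_CD+VC libraries (-1.61 ± 0.62 SE, edgeR adjusted p = 0.204). Cyp4a14, Phb2 and Ppp4r4 pointed the other way.

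In clean air at 12 weeks, w12_WD and w12_CD libraries shared the direction for 15 of the 22, where 57.9% of all genes tested did, and 1 gene in all was called (0.0238%), Ccdc85b, which is none of the 22 and is named after its value was seen. The third w12_WD library holds 607 counts. Without it the direction was shared for 16 of the 22, where 57.6% of all genes tested shared it. Acot4, Apoa4, Cyp4a14, D630045J12Rik, Mvp and Txnip pointed the other way in clean air.

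**Figure D3:**
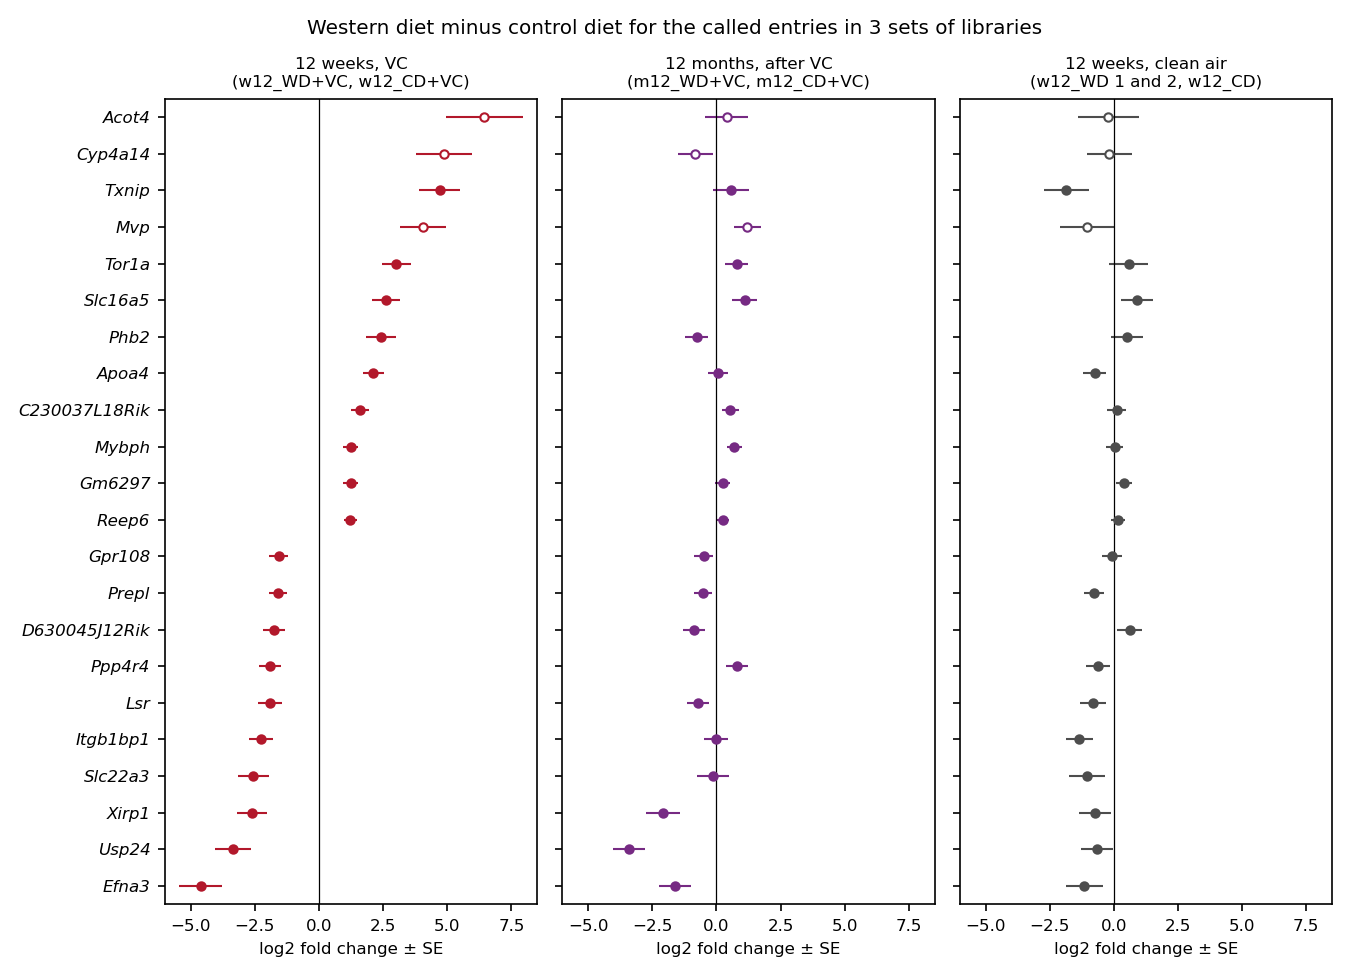
Log2 fold change of Western diet minus control diet with its SE for the 22 called entries, in 12-week libraries with VC (left), 12-month libraries after VC (middle) and 12-week libraries in clean air without w12_WD replicate 3 (right). Open circles mark Acot4, Mvp and Cyp4a14, which had 0 to 2 counts in w12_CD+VC libraries and whose fitted values depend on the prior count. Usp24 lies at -3.35 at 12 weeks and at -3.42 at 12 months, while Txnip lies above 0 with VC at 12 weeks and below 0 in clean air.

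Whether the diet effect differed with VC was tested as an interaction over the 12-week groups. It was called for 1 gene, Txnip (0.0238% of genes tested), and 186 genes had an unadjusted p under 0.05. In clean air Txnip had 49.9 and 51.6 CPM in the first and second w12_WD libraries and 1 count in the third, against 15.5, 357 and 140.3 CPM in w12_CD libraries (log2 fold change -1.77 ± 0.88 SE). The w12_WD and w12_CD values overlap, unlike those with VC. Its partner Gm15441 had 11073.5 and 9367 CPM in the first and second w12_WD libraries, against 2187, 4776 and 3859 CPM in w12_CD libraries. The log2 fold change of Gm15441 in clean air was 1.08 ± 0.40 SE (edgeR unadjusted p = 0.0114), with no call. Its interaction was -0.46 ± 0.56 SE (edgeR unadjusted p = 0.422). For Txnip the log2 difference between the diet effects was 6.47 ± 1.19 SE (edgeR adjusted p = 0.0194). The call was lost with RLE size factors (adjusted p = 0.0570 in edgeR), with DESeq2 (0.106) and with limma-voom (0.101). It was also lost without w12_WD+VC replicate 1 (adjusted p = 0.113), w12_CD+VC replicates 1 and 2 (0.0872 and 0.0638), w12_WD replicates 1 and 2 (0.369 and 0.299) and w12_CD replicate 2 (0.141) in edgeR. Apoa4 missed the threshold, with a log2 difference of 2.93 ± 0.62 SE (edgeR adjusted p = 0.0721). It passed with limma-voom (adjusted p = 0.0127), without the expression filter (0.000535 in edgeR), and without w12_CD replicate 1 (0.00607) or w12_CD+VC replicate 3 (0.0128). In the other alternatives the adjusted p was 0.0521 to 0.805. Apoa4 had 480.1 and 288 CPM in the first and second w12_WD libraries and 333, 1178 and 406 CPM in w12_CD libraries.

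The diet effect with VC was also set against itself across time. The interaction was called for 1 gene, Fads2 (0.0238% of genes tested), and 357 genes had an unadjusted p under 0.05. At 12 months Fads2 had 156, 133 and 110.3 CPM in m12_WD+VC libraries, against 464, 459.7 and 661 CPM in m12_CD+VC libraries, below them all (-2.0 ± 0.36 SE on the log2 scale, edgeR adjusted p = 0.00253). At 12 weeks the w12_WD+VC values were above the w12_CD+VC values, as given with the synthesis genes, without a call. The log2 difference of the later minus the earlier diet effect was -3.06 ± 0.51 SE (edgeR adjusted p = 0.00341), and the call held in every alternative, including each of 12 fits without 1 library. Cyp4a14, Phb2 and Ppp4r4 were next by p, each with an edgeR adjusted p of 0.143. Scd1, Fasn and Acly had lower means with Western diet at both times, with log2 fold changes of -2.42, -2.57 and -3.16 at 12 months, of which Fasn and Acly were called there (edgeR adjusted p = 0.0438 and 0.0324).

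**Figure D4:**
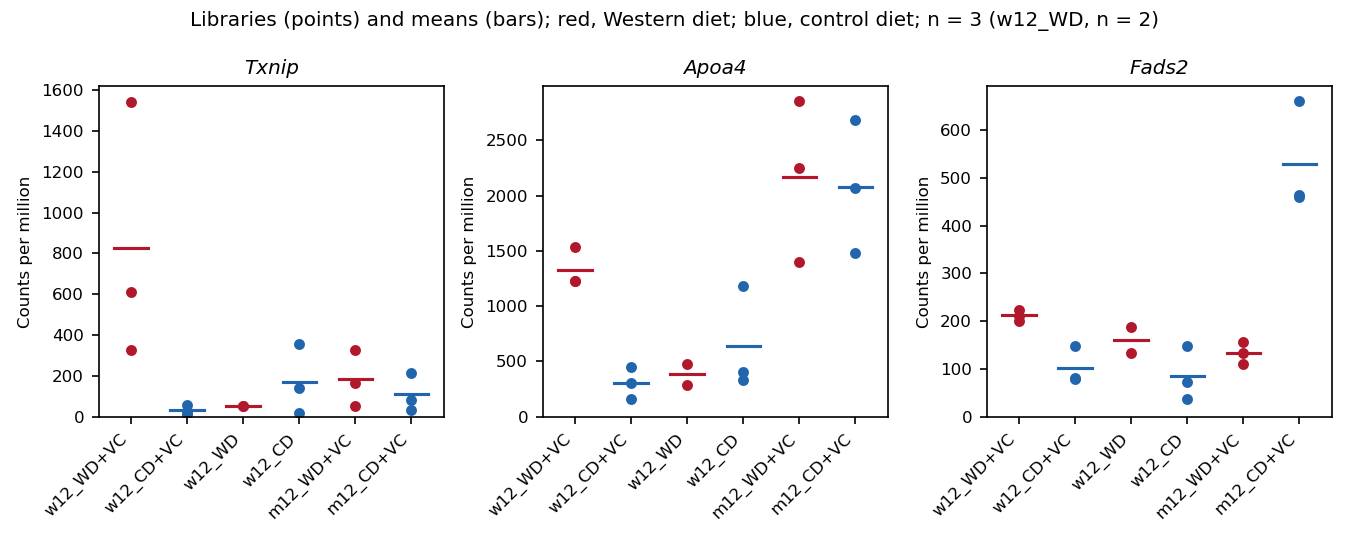
CPM (vertical axes, from 0) of Txnip, Apoa4 and Fads2 in the libraries of 6 groups (points) with group means (bars), Western diet in red and control diet in blue, 3 libraries a group and 2 for w12_WD, whose replicate 3 of 607 counts is not drawn. Txnip is highest in w12_WD+VC, and Fads2 is higher in w12_WD+VC than in w12_CD+VC but lower in m12_WD+VC than in m12_CD+VC.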

How the data were processed

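Per the labels' protocols, Trizol-extracted liver RNA was cleared of DNA and ribosomal RNA before library construction with a TruSeq kit that, as named, does not mark strand. The submitters' processing notes name Trimmomatic 0.38, HISAT2 2.1.0 and HTSeq 0.11.2, with mm10. The gene annotation and the strand setting behind the counts were not given in the sources used here. Raw counts as deposited by the authors are given for 24421 gene symbols in 24 libraries, and the per-sample files hold log2 values made by the authors, here used to check which column is which sample.

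Counts passed edgeR's expression filter and TMM scaling (4198 genes), and edgeR 4.0.16 in R 4.3.3 fitted 8 group means to all 24 libraries (common biological coefficient of variation 0.317), with Benjamini-Hochberg adjustment over all genes tested and a threshold of 0.05. The script was tested on simulated data. Depth was 140926 to 566870 counts in the 6 libraries compared. CPM are counts scaled to a library total of 1000000. A group at 0 was given 3 counts as its upper limit, and ratios on 1 to 3 counts have exact binomial 95% intervals. Intervals and floors cover counting error only. Pairs of replicates differed by more than sampling noise (chi-square per degree of freedom 3.39 to 8.57, 0 identical), so each library was counted once.

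Symbols were placed on GENCODE M21 (GRCm38), 23993 of 24421, and bedtools 2.31.1 marked entries whose exons overlap an opposite-strand gene. Promoter windows are from RefSeq on GRCm38.p6, and 18 of 22 called genes had one.

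Named genes were those called with at least 10 CPM in a group and groups that do not overlap, the largest first in each direction (12 without and 6 with an opposite-strand overlap, 3 predicted symbols), called members of the gene lists, a fixed set of liver genes, and the 5 genes with the smallest p for each interaction. List members at an unadjusted p under 0.05 were added after the values were seen. The comparison and the gene lists were chosen with earlier results of these data known. Lists are described by counts and medians, with no test. The alternatives tried were DESeq2 1.42.0, limma-voom (limma 3.58.1) with quality weights, RLE scaling, all genes without a filter, only the compared groups, 23 libraries, a replicate block, only entries without an opposite-strand overlap, and each library left out. DESeq2 and limma-voom without w12_WD+VC replicate 1 were added after seeing the data. Some members of the gene lists are not reported here.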

Additional observations from a re-analysis of the deposited data

Results flagged for a closer look

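The diet effect on Txnip differed between VC and clean air at 12 weeks, with a log2 difference of 6.47 (edgeR adjusted p = 0.0194). The effect was upward with VC and below 0 in clean air, where 1 of 3 w12_WD libraries holds 607 counts. The difference was 5.47 to 7.5 in the 12 fits without 1 library. The call was lost in some of these fits, at edgeR adjusted p up to 0.369. It was also lost with RLE size factors, DESeq2 and limma-voom. Txnip overlaps the antisense entry Gm15441, which was called in neither setting. The log2 fold change of Gm15441 was 0.62 ± 0.40 SE with VC and 1.08 ± 0.40 SE in clean air.

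The diet effect on Fads2 with VC differed between 12 months and 12 weeks, with a log2 difference of -3.06 (edgeR adjusted p = 0.00341). The effect was above 0 at 12 weeks and below 0 at 12 months, and the difference was -3.39 to -2.78 in the 12 fits without 1 library.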

How the results depend on the processing

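The 22 calls of Western diet with VC became 17 with RLE size factors, 19 with DESeq2, 41 without the expression filter, 40 with limma-voom, 13 when only the compared groups were fitted, 20 with 23 libraries and 6 among the entries without an opposite-strand overlap. The split of higher against lower calls was 15 to 26 without the filter, 11 to 29 with limma-voom and 10 to 3 in the fit of the compared groups, against 12 to 10. Left-out libraries gave 0 to 46 calls, and DESeq2 and limma-voom gave 0 and 0 without w12_WD+VC replicate 1. The fits of the compared groups (2401 genes) and of entries without an overlap (1666 genes) test fewer genes by construction, and for the others the cause was not tested. Txnip, Efna3, Tor1a, Apoa4, Itgb1bp1, Usp24 and C230037L18Rik were called in every alternative with a value that kept all 6 libraries, and 0 of the 22 were called whichever library was left out. Equal replicate numbers did not pair the libraries (correlations of 0.0565, 0.0123 and -0.0955 of their deviations). A replicate block gave 25 calls, with all 22 among them, 1 for diet by VC and 1 for diet by time.

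The diet by VC interaction had 0 calls with RLE size factors (172 genes at an unadjusted p under 0.05), 0 with DESeq2 (80), 7 without the filter, 0 among entries without overlap (78) and 0 to 3 without 1 library. Diet by time with VC had 6 calls without the filter, 2 with DESeq2, 4 with limma-voom, 5 in the fit of the compared groups and 1 to 2 without 1 library. RLE size factors moved the median log2 difference of all genes by time from -0.056 to -0.180.

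Changes of sign were found for uncalled genes near 0: Cyp3a11 (-0.01 with RLE, -0.13 with DESeq2), Srebf1 (-0.04, -0.12, and 0.00 without the filter), Lyz2 (-0.06) and Abcg5 (-0.07) with limma-voom. Fits without 1 library gave -0.89 to 0.05 for Rai1, -0.18 to 0.04 for Alb, -0.07 to 0.57 for Cyp2e1, -0.54 to 0.56 for Cyp3a11, -1.32 to 2.0 for Lyz2, -0.50 to 0.53 for Abcg5, -0.58 to 0.62 for Srebf1. Without w12_WD+VC replicate 1, DESeq2 gave 0.09 for Insig1, -1.36 for Lyz2, -0.53 for Abcg5, 0.05 for Alb, -0.63 for Cyp3a11 and -0.21 for Srebf1, and limma-voom 0.09, -0.56, -0.33, 0.03 and -0.34 for the same genes without Srebf1. List medians for sterol synthesis, glucose metabolism, bile acids, lipid droplets, foreign-compound P450s, acute phase, the unfolded protein and integrated stress responses, apolipoproteins, stellate cell markers, the clock and the respiratory chain crossed 0 in at least 1 alternative. At 3 counts, a gene at 0 in the shallowest of the 6 libraries could stand at up to 21.3 CPM, which limits genes of low level most.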
